A study of Sus scrofa with 4 samples.

Results

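The genes of transforming growth factor beta (TGF-beta), bone morphogenetic protein (BMP), SMAD and ID signalling were examined in porcine oocytes matured with or without an inhibitor of SIRT6, a NAD-dependent deacylase. They were the rows of the counts table whose symbols begin as the names of these families do, with GDF9 and BMP15 left out. The rule found 39 of the 4381 listed symbols. One of them, SKIV2L, an RNA helicase gene, matched by its letters only and had 0 and 8 counts in the control and 0 and 67 in the SIRT6-inhibited ones. The other 38 were genes of the pathway, namely 16 ligands, 2 extracellular modulators, 10 receptors, 6 SMADs and 4 ID genes.

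Oocytes came from abattoir ovaries and were matured in vitro within their cumulus cells for 42 to 44 h to M II, the stage at which they are ready for fertilization. The maturation medium of SIRT6-inhibited oocytes held SIRT6-IN-1, an inhibitor dissolved in DMSO, at 100 μM, and that of control oocytes did not. Each group had 2 libraries, and 100 oocytes were collected per group. No source says that the libraries of a group came from separate cultures or collections, so p-values measure only the spread between these libraries, which may be technical. Total counts on the listed symbols came to 4646129 for control library 1, 3405960 for control library 2, 3239200 for SIRT6-inhibited library 1 and 4972602 for SIRT6-inhibited library 2. Fewer than 3 counts, which is 0.603 to 0.926 CPM (counts scaled to a common library total) depending on the library, could not be told from 0. In pooled oocytes, fewer cells of a kind and less RNA per cell cannot be told apart.

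Ligands of the TGF-beta family are secreted dimers that bind pairs of type II and type I receptors, which are serine/threonine kinases. TGF-beta and activin receptors act mainly through SMAD2 and SMAD3, and BMP receptors through SMAD1, SMAD5 and SMAD9. These SMADs enter the nucleus with SMAD4, and the ID genes, which encode inhibitors of basic helix-loop-helix transcription factors, are well-known targets of the BMP branch. In the ovary the family carries signals between the oocyte and the cells around it.

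Of the 38 pathway genes, 20 passed the filter on low counts and were tested with edgeR's quasi-likelihood test. No gene of the table had an adjusted p-value under 0.05 in that test (0% of 2387 genes tested), although 216 had an unadjusted p-value under 0.05, and 37 genes passed adjustment in DESeq2's Wald test and 0 in limma-voom. A single pathway gene, the activin receptor gene ACVR1B, had an unadjusted p-value under 0.05, with a higher level in SIRT6-inhibited oocytes. None of the 20 had one with a lower level. Over all tested genes, 3.06% had such a p-value with a higher and 5.99% with a lower level, so the share among the pathway genes was near the background. The count of 1 became 2 of 22 without control library 1, 2 of 26 without control library 2, 3 of 24 without SIRT6-inhibited library 1 and 3 of 26 without SIRT6-inhibited library 2, and ACVR1B was among them each time. The shares of all genes tested in the same way, in either direction, were 5.8%, 4.4%, 11.7% and 11.0%, beside 9.05% with all libraries.

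Both SIRT6-inhibited libraries were above both control libraries for 3 of the 20 genes, ACVR1B, BMP2 and SMAD3, against 17.9% of all tested genes. They were below both for the activin subunit genes INHBA and INHBB, 2 of 20, against 22.2% of all tested genes. For the other 15 the groups overlapped. With a library left out, a lone library is set against a pair and overlap is rarer, and more genes pass the filter. The count in either direction was then 12 of 22 without control library 1, 17 of 26 without control library 2, 16 of 24 without SIRT6-inhibited library 1 and 16 of 26 without SIRT6-inhibited library 2. The shares of all genes tested in the same way were 67.8%, 64.8%, 69.7% and 68.6%. The median log2 fold change, SIRT6-inhibited against control, was -0.01 over the 20 genes and -0.04 over all tested genes. It was 0.08 over 22 genes without control library 1 and -0.27 over 24 genes without SIRT6-inhibited library 1. Its sign also turned with all libraries kept, to 0.011 with DESeq2's size factors (RLE), 0.011 in DESeq2's Wald test and 0.0026 with at least 10 counts in every library, so the median had no firm direction.

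**Figure D1:**
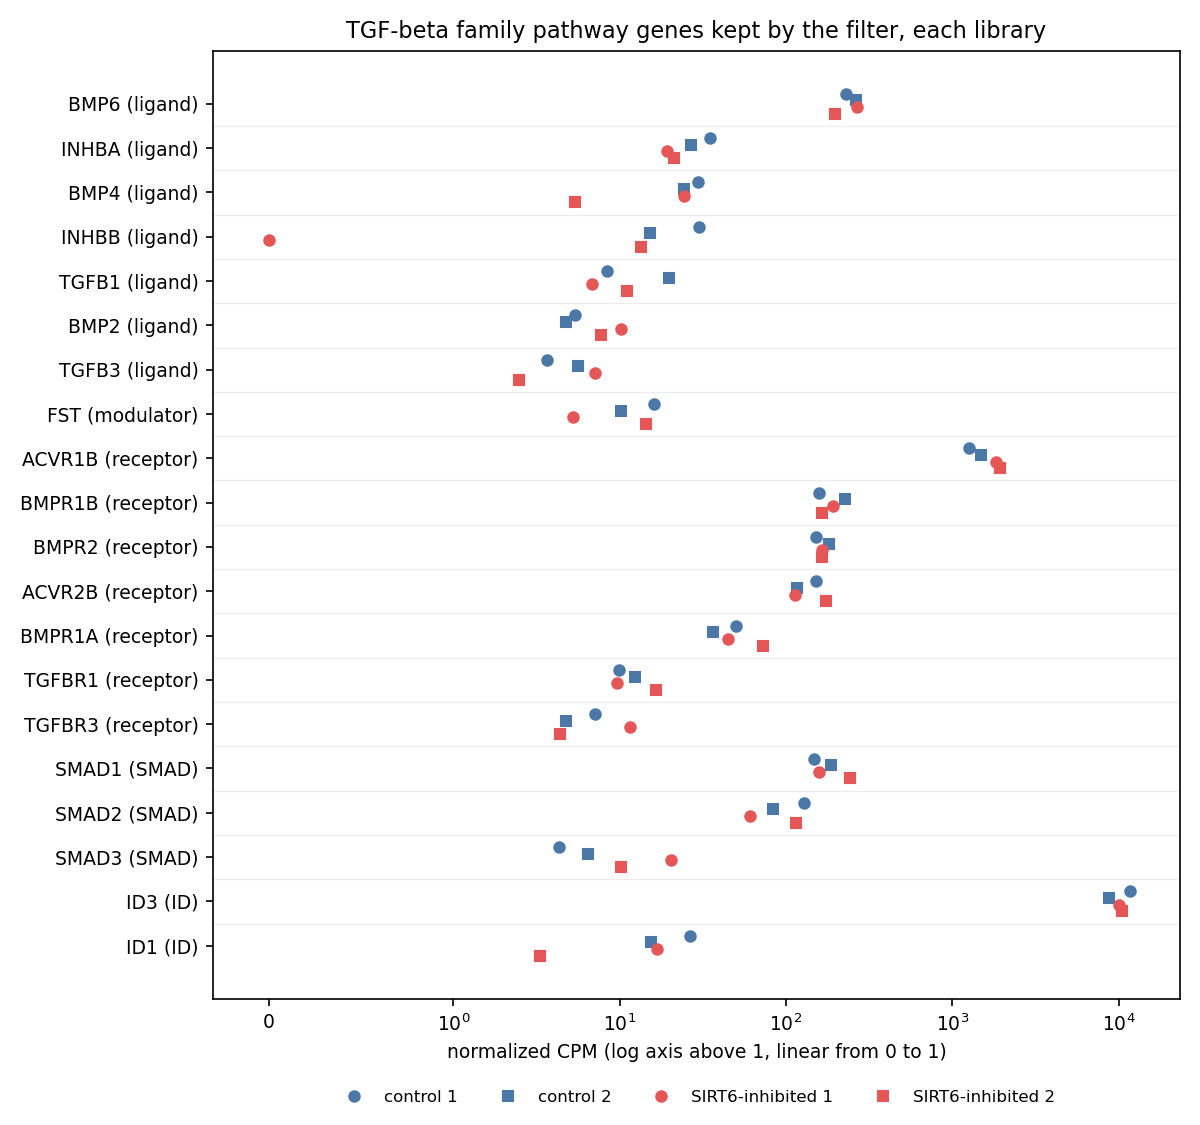
Normalized CPM (log axis above 1) of the 20 pathway genes kept by the filter, ordered by role, with 1 point for each library. The SIRT6-inhibited libraries lie apart from the controls for ACVR1B, between 1834 and 1933, and overlap them for ID3.

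Levels below are normalized CPM, which are counts relative to library totals scaled by trimmed mean of M values (TMM). They are not corrected for transcript length, so levels are compared between libraries and not between genes.

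Receptors gave the difference with the smallest error relative to its size. ACVR1B encodes a type I receptor for activins and Nodal and lies at chr5:17314322-17350726 in the Sscrofa11.1 RefSeq annotation. Its level was 1266 and 1489 in the control and 1834 and 1933 in the SIRT6-inhibited ones. The groups did not overlap, with means of 1378 ± 158 and 1883 ± 70.3 (SD, n = 2). The log2 fold change was 0.45 with a standard error of 0.12 and a 95% interval of 0.16 to 0.75, and edgeR's adjusted p-value was 0.460. When single libraries were left out, the fold change ran from 0.33 to 0.57. In DESeq2's Wald test the adjusted p-value was 0.0225, within a range of 0.0225 to 0.950 over the alternatives, so the call depended on the test.

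The type II receptor gene for activins, ACVR2B, did not follow ACVR1B. Its level was 151 and 117 in the control and 113 and 174 in the SIRT6-inhibited libraries, so that the SIRT6-inhibited libraries were both the lowest and the highest. ACVR2A, which encodes the related type II receptor, had 3 counts in SIRT6-inhibited library 2 and 0 in the others. The summed level of the 10 receptor genes was 1793 and 2066 in the control and 2369 and 2533 in the SIRT6-inhibited libraries. Without ACVR1B the sums were 526 and 577 against 535 and 600, and the groups overlapped.

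BMP receptors overlapped between the groups. BMPR2, the type II receptor gene for BMPs, had a level of 151 and 181 in the control and 164 and 165 in the SIRT6-inhibited ones. The log2 fold change was -0.01 with a 95% interval of -0.54 to 0.52. BMPR1B, a type I receptor gene known for its part in ovulation rate in sheep, had 157 and 225 against 192 and 166. For BMPR1A, the related type I receptor gene, the level was 50.1 and 36.6 against 45.0 and 73.1, and the log2 fold change of 0.45 had a standard error of 0.45. It was about as large as that of ACVR1B and had over 3 times its error. The difference came mostly from SIRT6-inhibited library 2, without which it was 0.05. It was 0.75 without SIRT6-inhibited library 1, 0.68 without control library 1 and 0.23 without control library 2.

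TGF-beta receptor genes had low counts. TGFBR1, the type I receptor gene, had a level of 9.93 and 12.4 in the control and 9.63 and 16.7 in the SIRT6-inhibited libraries. TGFBR3, which encodes the co-receptor betaglycan, had 7.12 and 4.78 against 11.5 and 4.37. In both genes the SIRT6-inhibited libraries lay on either side of the controls. The receptor gene for anti-Müllerian hormone, AMHR2, and the co-receptor gene ENG had 0 counts in all 4 libraries. ACVR1, ACVR1C, ACVRL1 and TGFBR2 were not analysed here.

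**Figure D2:**
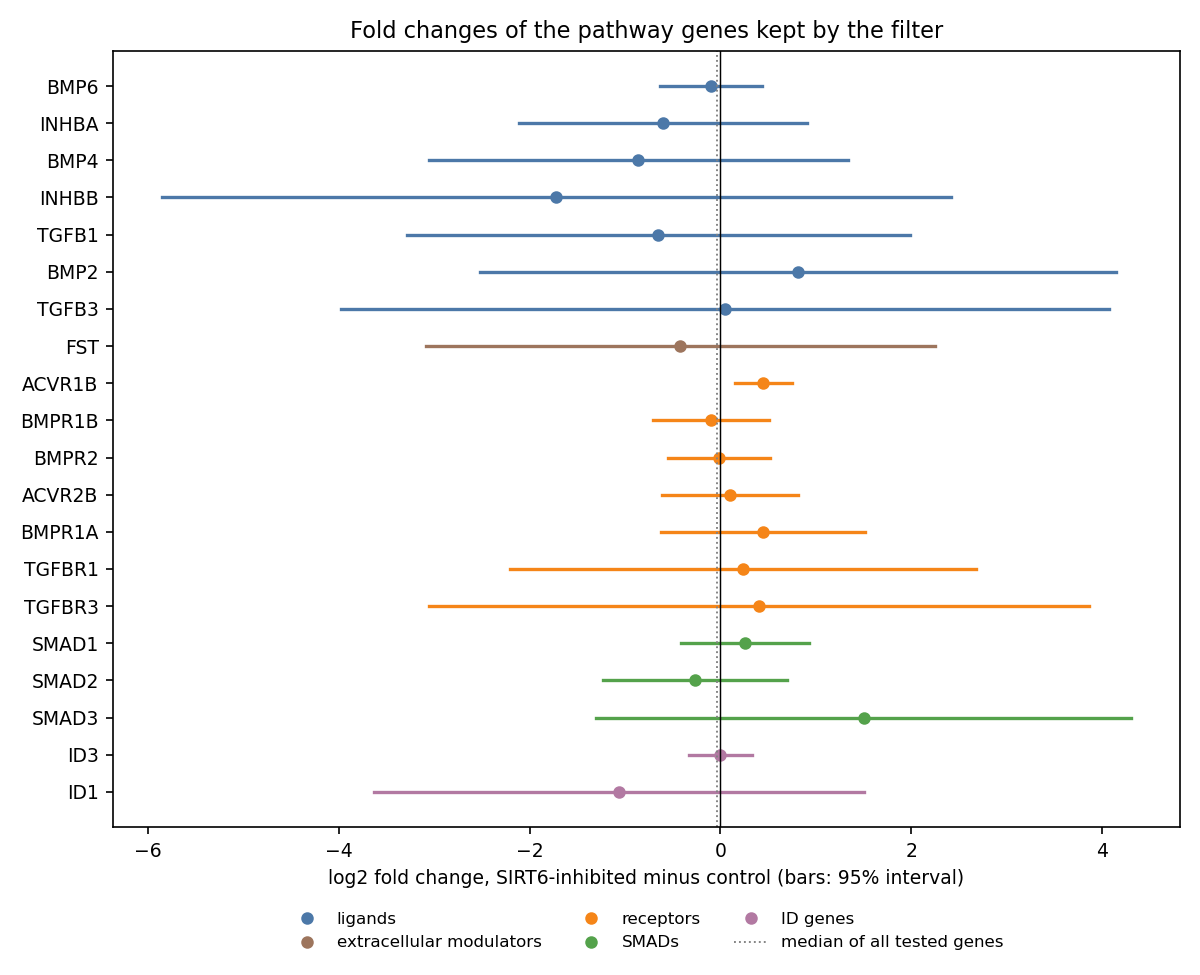
Log2 fold change of each pathway gene kept by the filter, SIRT6-inhibited minus control, with its 95% interval (2 libraries per group) and the median of all tested genes as a dotted line. The interval of ACVR1B, from 0.16 to 0.75, is the one that leaves out 0.

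Among the SMADs, no gene had an unadjusted p-value under 0.05. SMAD1, which carries BMP signals, had a level of 148 and 186 in the control and 157 and 242 in the SIRT6-inhibited libraries. SMAD2, which carries activin and TGF-beta signals, had 129 and 83.3 against 61.2 and 115. The groups overlapped in both genes. SMAD3 acts beside SMAD2 and lies at chr1:164998457-165124455 in Sscrofa11.1. Its level was 4.32 and 6.47 in the control and 20.5 and 10.2 in the SIRT6-inhibited libraries, higher in both of the latter. The log2 fold change of 1.50 had a standard error of 1.17 and an adjusted p-value of 0.869 in edgeR, and was 0.91 without SIRT6-inhibited library 1 and 1.92 without SIRT6-inhibited library 2. This difference rested on 20 and 23 counts against 66 and 49, and its 95% interval of -1.30 to 4.31 held 0.

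SMAD4, the partner shared by both branches, did not pass the filter, with 18 and 2 counts in the control and 4 and 0 in the SIRT6-inhibited libraries. SMAD9 and the inhibitory SMAD7 had 0 counts in all 4 libraries. SMAD5 and SMAD6 were not analysed here, and neither were the ubiquitin ligase genes SMURF1 and SMURF2 nor the repressor genes SKI and SKIL. The summed level of the 6 SMAD genes was 285 and 276 in the control and 240 and 367 in the SIRT6-inhibited libraries, so that the controls lay between the others.

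Of the ID genes, ID3 had by far the most counts, and its difference between the groups was smaller than its standard error. It lies at chr6:81422541-81424169 in Sscrofa11.1. ID3 had 54108 and 31302 counts in the control and 32311 and 50131 in the SIRT6-inhibited libraries. These were 1.16% and 0.919% of all counts in the control and 0.998% and 1.01% in the SIRT6-inhibited ones. The exact (Clopper-Pearson) 95% intervals of these shares, from 1.15% to 1.17%, from 0.909% to 0.929%, from 0.987% to 1.01% and from 0.999% to 1.02%, cover counting error only. The ID3 level was 11675 and 8806 against 10032 and 10435, with both SIRT6-inhibited libraries between the controls. The log2 fold change was -0.0011 with a standard error of 0.14 and a 95% interval of -0.33 to 0.33. Its sign changed with the scaling, to 0.02 under RLE, and with the control library that was left out. It was 0.21 without control library 1 and -0.19 without control library 2, each with an unadjusted p-value under 0.05. ID3 held 76.3% to 82.5% of the counts of the 38 pathway genes in each library.

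The remaining ID genes had few counts. ID1 had a level of 26.3 and 15.5 in the control and 16.8 and 3.33 in the SIRT6-inhibited libraries. SIRT6-inhibited library 2 was lowest, and SIRT6-inhibited library 1 lay between the controls. The log2 fold change of -1.06 had a standard error of 1.07. It was -2.64, with an unadjusted p-value under 0.05, without SIRT6-inhibited library 1, and -0.32 without SIRT6-inhibited library 2. ID2 had 22 counts in control library 1 and 0 in the others, and ID4 had 20 and 0 counts in the control and 0 and 7 in the SIRT6-inhibited ones.

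The ligand with the most counts was BMP6, a BMP that oocytes are known to make. Its level was 230 and 265 in the control and 266 and 197 in the SIRT6-inhibited libraries, with a log2 fold change of -0.10 and a standard error of 0.22. BMP4, known in the ovary from theca cells, had 29.8 and 24.5 against 24.5 and 5.41, so that a single SIRT6-inhibited library was low. Its log2 fold change was -0.86 with a standard error of 0.92. It was -2.32, at an unadjusted p-value under 0.05, without SIRT6-inhibited library 1, and -0.15 without SIRT6-inhibited library 2, while the replicate block gave -1.21 and limma-voom -1.55. BMP2 had 5.39 and 4.78 against 10.2 and 7.70. Both SIRT6-inhibited libraries were higher for BMP2, but the log2 fold change of 0.81 had a standard error of 1.39.

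The activin and inhibin subunit genes were lower in both SIRT6-inhibited libraries where they were tested. INHBA, which encodes the subunit of activin A, had a level of 34.7 and 26.7 in the control and 19.3 and 21.2 in the SIRT6-inhibited libraries. Its log2 fold change was -0.60 with a standard error of 0.63 and a 95% interval of -2.11 to 0.91. INHBB, which encodes the subunit of activin B, had 30.0 and 15.2 against 0 and 13.5. The lower control library and the higher SIRT6-inhibited library were close, and the log2 fold change of -1.72 had a standard error of 1.73. It was -0.74 without SIRT6-inhibited library 1, -3.37 with the replicate block and -3.42 in limma-voom. Without SIRT6-inhibited library 2 the lone library had 0 counts, and the fitted value of -9.43 depends on a prior count. Neither had an unadjusted p-value under 0.05, and edgeR's adjusted p-values were 0.955 and 0.939. INHA, the inhibin alpha subunit gene, had 12 counts in SIRT6-inhibited library 2 and 0 in the others.

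TGFB1 had a level of 8.42 and 19.7 in the control and 6.83 and 11.0 in the SIRT6-inhibited libraries, and TGFB3 had 3.67 and 5.63 against 7.14 and 2.50. In both ligand genes the groups overlapped. FST encodes follistatin, which binds activins, and had 16.2 and 10.1 against 5.28 and 14.4, again with overlap. NOG, the gene of the BMP antagonist noggin, had 0 counts in all 4 libraries, as did the ligand genes AMH, BMP3, GDF15 and GDF5. Ligands that did not pass the filter had scattered counts or none. LEFTY2, which encodes an inhibitor of Nodal signalling, had 58 counts in SIRT6-inhibited library 1 and 0 in the others. GDF11 had 26 counts in that library, 2 in control library 1 and 0 in the others. BMP7 had 10 counts in control library 1 and 0 in the others, and BMP5 had 15 and 2 in the control and 0 and 0 in the SIRT6-inhibited ones. The summed level of the 16 ligand genes was 348 and 362 in the control and 360 and 261 in the SIRT6-inhibited ones.

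Genes with few counts were compared with less precision. For the 7 tested pathway genes with a mean level of at least 100, the standard error of the log2 fold change was between 0.12 and 0.30. For the 13 below that level it was between 0.40 and 1.73, so that for several of them a log2 difference of 1 was smaller than the standard error. The plot of fold change against mean level shows the same widening over all tested genes.

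**Figure D3:**
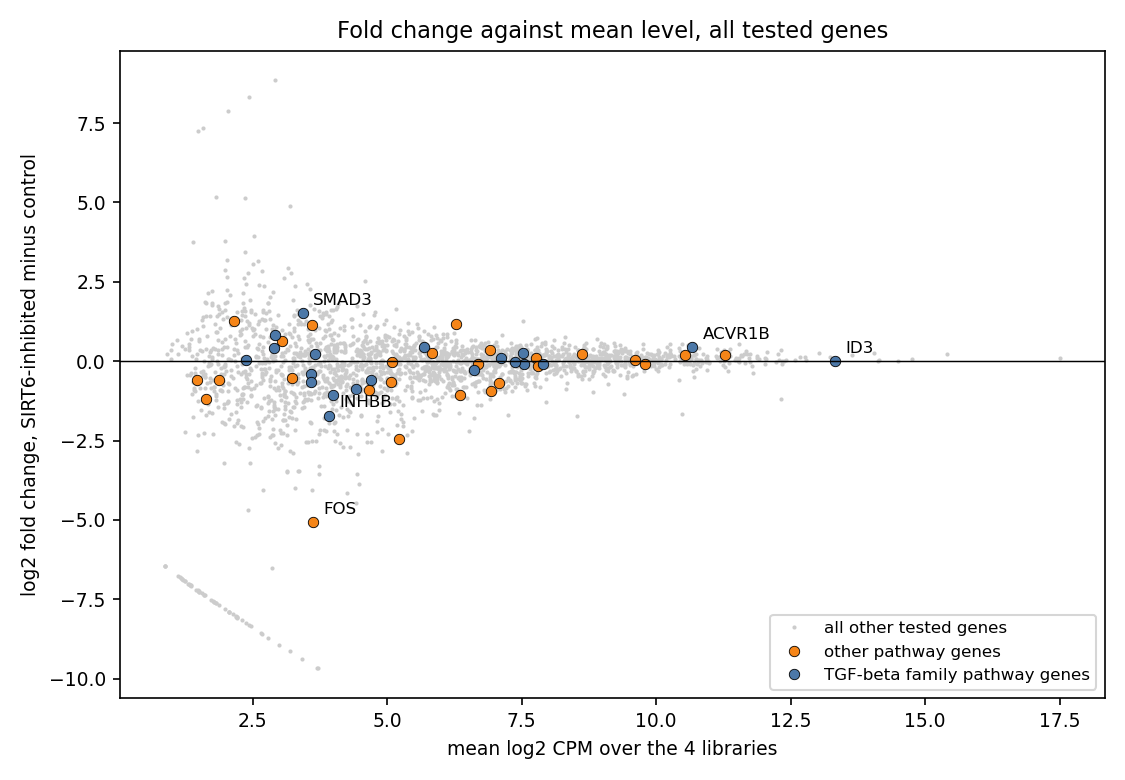
Log2 fold change, SIRT6-inhibited minus control, against mean log2 CPM over the 4 libraries for the 2387 tested genes (grey), with the 20 pathway genes in blue and 26 other pathway genes in orange. ACVR1B lies at 0.45 and ID3 near 0, while the grey diagonal at the lower left holds genes with few counts whose fitted fold changes depend on a prior count.

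Other genes of the pathway, outside the families above, were taken from a list of 120 convertases, cofactors, kinases, phosphatases and target genes. Of these 34 were among the symbols and 26 passed the filter. Among the 26, 5 had an unadjusted p-value under 0.05 and a lower level in SIRT6-inhibited oocytes, among them XIAP, FOS, LEMD3 and JUN. Of the 26, 0 had one with a higher level. The shares of all tested genes were 5.99% lower and 3.06% higher. FOS passed the filter through its control libraries only, so it could not have counted as higher. The list was drawn up with earlier results of these data known, so the 5 describe these libraries and do not test the list. None of the 26 passed adjustment in edgeR, where the adjusted p-values of the 4 genes named lay between 0.469 and 0.496. The median log2 fold change over the 26 was -0.10. With a library left out, a lone library is set against a pair. The share of these genes with an unadjusted p-value under 0.05 then depended on the library, as did the share of all genes tested in the same way. Both shares were smaller without a control library than without a SIRT6-inhibited library. The count of 0 held in part of the alternatives only. PPP1CA, a protein phosphatase 1 catalytic subunit gene chosen after its values were seen, had a mean level of 47.9 ± 5.48 (SD, n = 2) in the control and levels of 57.1 and 157 in the SIRT6-inhibited libraries. It was higher by 1.16 on the log2 scale, with 0.50 as the standard error, and by 0.25 without SIRT6-inhibited library 2 and 1.71 without SIRT6-inhibited library 1, so the size rested on the former. With all libraries, its unadjusted p-value in edgeR was 0.0549 and its adjusted p-value 0.551. The unadjusted p-value was under 0.05 with no filter on low counts, with at least 10 counts in every library and with the replicate block. The same held in DESeq2's Wald test and in limma-voom. It was not under 0.05 with RLE, with library totals only or with the 10 most abundant genes left out.

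FOS and JUN encode the subunits of the AP-1 transcription factor, which binds target genes beside SMADs. FOS had a level of 16.6 and 29.5 in the control and 0 and 1.25 in the SIRT6-inhibited ones. The SIRT6-inhibited group held 6 counts against 77 and 105, and the log2 fold change of -5.06 had a standard error of 1.66, so its size is loosely fixed. Without SIRT6-inhibited library 2 the lone library had 0 counts, and the fitted value of -9.46 depends on a prior count. The adjusted p-value was 0.487 in edgeR, 0.0391 in DESeq2's Wald test and 0.00855 to 0.960 over the alternatives, with the lowest value from the comparison with that lone library. Without control library 2, and in limma-voom, the unadjusted p-value for FOS was above 0.05. JUN had a level of 158 and 173 in the control and 107 and 101 in the SIRT6-inhibited ones. The JUN libraries lay close together within each group, and the log2 fold change was -0.67 with a standard error of 0.23. The unadjusted p-value for JUN was not under 0.05 in DESeq2's Wald test or without control library 1, control library 2 or SIRT6-inhibited library 2.

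LEMD3 encodes an inner nuclear membrane protein that binds SMADs and dampens the pathway. Its level was 183 and 139 in the control and 65.5 and 101 in the SIRT6-inhibited libraries, with a log2 fold change of -0.94 and a standard error of 0.32. XIAP, which links receptors to the kinase TAK1 as well as inhibiting caspases, had 127 and 92.3 against 49.7 and 56.0. Its log2 fold change was -1.05 with a standard error of 0.32. The groups did not overlap in either gene. Without control library 1 neither had an unadjusted p-value under 0.05, and LEMD3 also lost it without SIRT6-inhibited library 1.

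The 5 genes of the list with the most counts relative to library totals differed little. PPP2R1A, the scaffold subunit gene of protein phosphatase 2A, had a level of 2357 and 2288 in the control and 2671 and 2586 in the SIRT6-inhibited libraries. FKBP1A, whose product FKBP12 holds type I receptors inactive, had 1495 and 1293 against 1558 and 1597. MSX1, a homeobox gene that BMPs induce, had 399 and 328 against 410 and 440. In these 3 genes both SIRT6-inhibited libraries were above the controls. The log2 fold changes were 0.18, 0.18 and 0.22, with standard errors of 0.10, 0.12 and 0.17. Among the 26 tested genes of the list, both libraries were above the controls in 5 and below them in 6. The shares of all tested genes were 17.9% and 22.2%. For FKBP1A and MSX1 the values were 0.073 and 0.084 without control library 2, and 0.28 and 0.36 without control library 1. PPP2R1A had an unadjusted p-value under 0.05 in DESeq2's Wald test. PPP2CA, the catalytic subunit gene of the phosphatase, had 1011 and 821 against 867 and 840. RHOA, a small GTPase gene, had 771 and 769 against 749 and 817. The groups overlapped for both, and the sign for RHOA changed when libraries were scaled by their totals alone, from 0.02 to -0.03.

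**Figure D4:**
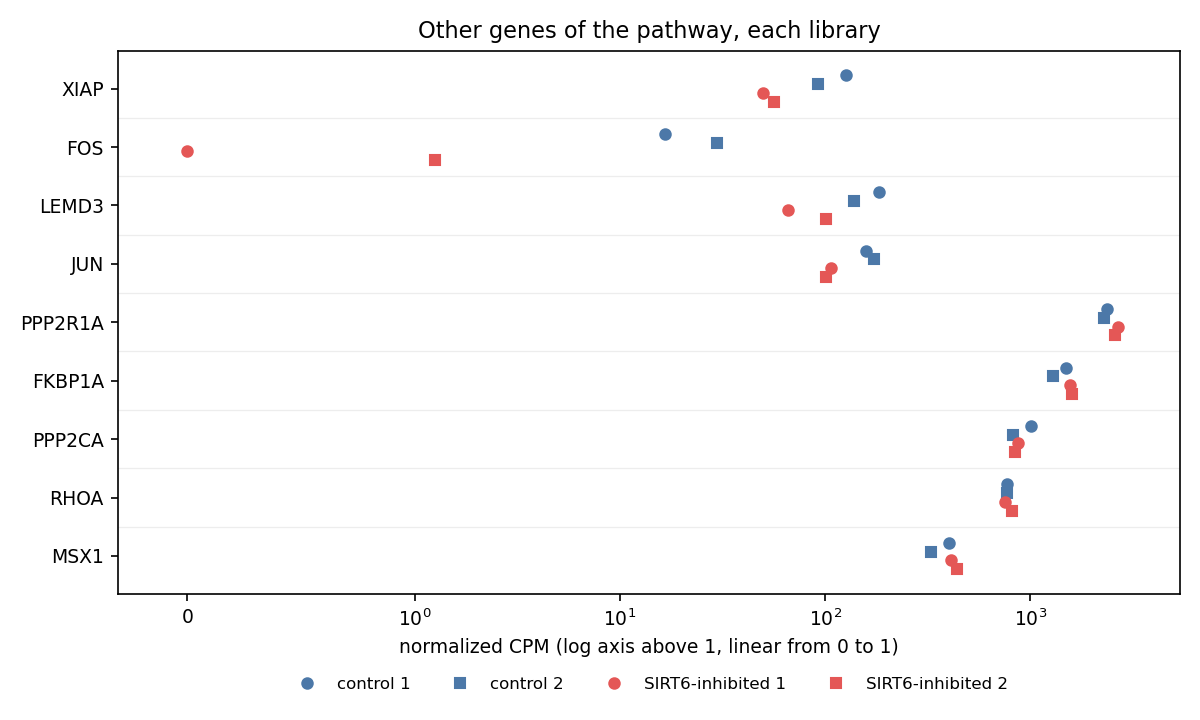
Normalized CPM (log axis above 1) in each library of 4 other pathway genes with an unadjusted p-value under 0.05 (upper) and the 5 with the highest mean normalized CPM, not per length (lower). JUN is at 107 and 101 in SIRT6-inhibited oocytes, to the left of its control values of 158 and 173.

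Markers of the oocyte and of the cells around it were read beside these genes, since several ligand genes are also expressed by ovarian somatic cells. Of 17 oocyte markers, 13 were listed and all 13 passed the filter. Their summed level was 78369 and 79892 in the control and 77632 and 78955 in the SIRT6-inhibited libraries, with most counts from KPNA7, H1FOO and BMP15. The sums, which rest on these 3 genes, thus differed little between libraries. Of the 13, ZP2 and GDF9 were lower at an unadjusted p-value under 0.05, against 5.99% of all tested genes. Their adjusted p-values in edgeR were 0.510 and 0.469. GDF9 had a level of 1322 and 2986 in the control and 977 and 393 in the SIRT6-inhibited libraries, with means of 2154 and 685. The oocyte ligand genes GDF9 and BMP15 are the ones that were left out above.

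Of 27 cumulus and granulosa markers, 21 were listed and 11 passed the filter, and none had an unadjusted p-value under 0.05. Their summed level was 323 and 335 in the control and 184 and 325 in the SIRT6-inhibited libraries, with the most counts from VCAN. The receptor genes FSHR and LHCGR, and AREG, TNFAIP6 and LUM, had 0 counts in all 4 libraries. In 4 of the 11 (PTGS2, SERPINE2, PGR and FDX1) both SIRT6-inhibited libraries were lower, against 22.2% of all tested genes, and in 1 (CYP11A1) both were higher, against 17.9%. In the other 6 the groups overlapped. PTGS2 passed the filter through its control libraries only, so it could not have counted as higher. PTGS2, a cumulus expansion gene, was lower by at least 5.22-fold against a floor of 3 counts per library, from 22 and 12 counts in the control to 0 and 0, without passing the test. SERPINE2 had a level of 40.1 and 30.7 against 21.1 and 7.08. CYP11A1, a steroid synthesis gene, went the other way, with 0 and 2.53 against 4.04 and 11.7. Of 14 markers of theca, stroma, blood and endothelium, 11 were listed, 8 had 0 counts in all 4 libraries and 2 passed the filter. Their sum was 31.3 and 62.7 in the control and 23.9 and 21.9 in the SIRT6-inhibited libraries, with the most counts from PECAM1. The somatic sums were thus lowest in SIRT6-inhibited library 1 for the cumulus and granulosa list and in SIRT6-inhibited library 2 for the other. PDGFRA, a stromal marker, had 13.8 and 30.7 against 0 and 2.50, while PECAM1, an endothelial marker and the other of the 2 tested, had 14.9 and 31.2 against 23.9 and 19.4, with overlap. PDGFRA passed the filter through its control libraries only. The sums of that list do not depend on the filter, and their lower values thus came mostly from PDGFRA. The part of these cells in the lower levels of FOS, INHBA and INHBB was not tested.

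**Figure D5:**
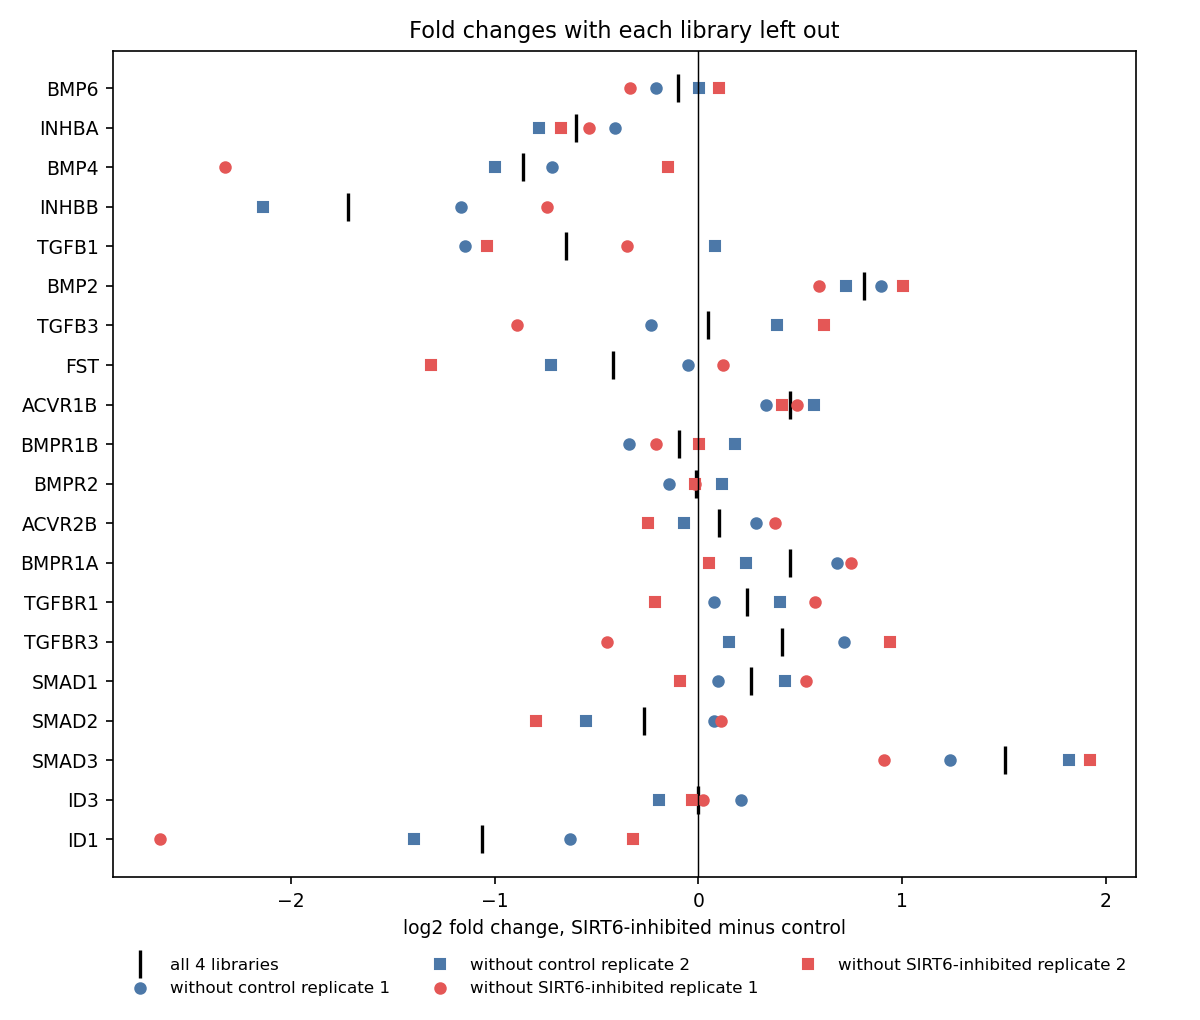
Log2 fold change of each pathway gene kept by the filter with all 4 libraries (bars) and with each library left out (points). ACVR1B stays between 0.33 and 0.57, whereas 12 of the 20 genes change sign, and the value of INHBB without SIRT6-inhibited library 2 is not drawn because the lone library had 0 counts.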

How the data were processed

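The values are the counts of reads on each gene symbol that the authors deposited, whole numbers that had not been normalized. Their RNA was sequenced as 150-bp paired-end reads after column extraction, and the labels also name Smart-seq2 amplification. The submitters' processing notes list TopHat2 2.0.13, Cufflinks 2.2.1 and the builds susScr11 and mm10. The counting tool, annotation and strand setting are not given in the sources used here. Coordinates are those of RefSeq genes on Sscrofa11.1 (susScr11), where all 39 members matched by symbol. Genes were kept by filterByExpr (minimum count 10, minimum total 15), scaled by TMM (factors 0.966 to 1.04) and tested, two-sided, with edgeR 4.0.16 in R 4.3.3, with Benjamini-Hochberg adjustment over all 2387 tested genes. An exact permutation test of 2 against 2 cannot go below p = 0.333. The standard error is the log2 fold change divided by the square root of F. The fit was tested on simulated data.

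Named are all members of the families, other pathway genes whose unadjusted p-value was under 0.05, and the 5 other pathway genes with the highest mean normalized CPM. One of these genes is left unreported. Marker genes outside this rule were chosen after their values were seen. Members and lists were chosen with earlier results of these data known. Alternatives were RLE, library totals, leaving out the 10 most abundant genes, other filters, a replicate block, DESeq2 1.42.0, limma 3.58.1 (voom) and leaving out each library. Same-numbered libraries deviated with a correlation of -0.117 across genes, which are not independent replicates.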

Additional observations from a re-analysis of the deposited data

How the results depend on the processing

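The number of genes of the table with an adjusted p-value under 0.05, 0 in edgeR, was 43 with no filter on low counts, 2 with at least 10 counts in every library, 37 in DESeq2's Wald test and 0 to 77 with a library left out. With the replicate block it was 6. An unadjusted p-value under 0.05 was then held by 1 of 20 pathway genes, 6 of 26 other pathway genes and 7.37% of all tested genes. Crossing the replicate block, a setting picked once results were known, gave 2, 1 of 20, 5 of 26 and 10.1% in the same order. The number of pathway genes with an unadjusted p-value under 0.05, otherwise 1, was 2 with no filter, where ACVR1B and LEFTY2 had one, and 2 to 3 with a library left out. Other pathway genes numbered 2 to 7, and pathway genes without overlap 12 to 17, with a library left out. The median log2 fold change of the pathway genes then ran from -0.27 to 0.076. A lone library was assumed to vary like the other group. Overlap uses no fit, so the replicate block and limma-voom give no value for it. ID3 is among the 10 most abundant genes and has no value without them.

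Of the 20 pathway genes, 8 had the same direction in every alternative run, namely ACVR1B, BMPR1A, BMP2, BMP4, INHBA, INHBB, SMAD3 and ID1. The log2 fold changes that changed sign ran, with a library left out, from -0.34 to 0.10 for BMP6, -1.15 to 0.082 for TGFB1, -0.89 to 0.62 for TGFB3, -1.31 to 0.12 for FST, -0.34 to 0.18 for BMPR1B, -0.15 to 0.11 for BMPR2, -0.25 to 0.37 for ACVR2B, -0.21 to 0.57 for TGFBR1, -0.45 to 0.94 for TGFBR3, -0.089 to 0.53 for SMAD1, -0.80 to 0.11 for SMAD2, -0.19 to 0.21 for ID3, -0.25 to 0.047 for PPP2CA and -0.041 to 0.081 for RHOA. TGFB3 was -0.0054 with library totals only, -0.10 with the replicate block and -0.21 in limma-voom. BMPR2 was 0.0057 with RLE, 0.0058 in DESeq2's Wald test and 0.0067 in limma-voom. ID3 was 0.017 with RLE, 0.0026 with at least 10 counts in every library, 0.013 with the replicate block and 0.017 in DESeq2's Wald test. RHOA was -0.034 with library totals only. The cause of these changes was not tested. INHBB passed adjustment, at 0.00952 in edgeR, without SIRT6-inhibited library 2, where it was set against a library with 0 counts, within a range of 0.00952 to 0.997 over the alternatives.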

Other observations

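The libraries were counted by how often each held the lowest or the highest level of a pathway gene. Of the 20 tested genes, control library 1 was the lowest of the 4 in 5 and the highest in 7, and control library 2 the lowest in 3 and the highest in 3. SIRT6-inhibited library 1 was the lowest in 7 and the highest in 5, and SIRT6-inhibited library 2 the lowest in 5 and the highest in 5. Over all 2387 tested genes, the same libraries were the lowest in 519, 524, 616 and 580 genes and the highest in 545, 679, 554 and 609.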
